A study of Homo sapiens with 18 samples.

Results

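The genes for the proteins of the cytosolic ribosome were followed across 6 HEK cell lines. A gene was a member if its symbol was RPL or RPS followed by a number and at most 1 further letter A, X or L, with pseudogenes and the ribosomal S6 kinases left out. This gave 49 of the 14884 genes with a symbol on the array, 31 for the large (60S) subunit and 18 for the small (40S) subunit. RPLP0, RPLP1, RPLP2 and RPSA, which the rule also named, were not among these genes and are not analysed here. Tests were made on genes above a log2 signal of 5.6 in 3 or more arrays, which left 47 members among 9686 genes. The large-subunit members RPL10L, at 3.11 to 4.26, and RPL22, at 5.28 to 5.62, did not reach it. All values are log2 signals, so that a difference of −0.10 is a slightly lower signal, and the signals of different probe sets cannot be ranked against each other.

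HEK is an established line of human embryonic kidney cells. The wild-type lines numbered 3, the parental cells and 2 CRISPR controls called N4 and N8. The 3 lines labelled ATXN1L-KO were A10, A30 and B21, made with CRISPR/Cas9 against ATXN1L, which encodes a binding partner of the transcriptional repressor CIC. Per the labels, cells were treated with CRISPR, selected with puromycin and grown up from single colonies, so each CRISPR line stands for 1 clone. All lines were kept in DMEM with 10% FBS, and 3 biological replicates of each gave 1 array each, 18 in all. The question here was how ribosomal protein genes, and the subunits they belong to, differed over the 6 lines.

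A ribosome contains 1 copy of almost every ribosomal protein, so these genes are among the most strongly and evenly expressed in growing cells. Their transcripts usually begin with a cytidine followed by a run of pyrimidines, the 5′ terminal oligopyrimidine (TOP) tract, through which mTOR signalling controls their translation. Assembly of the subunits takes place largely in the nucleolus with the help of a large set of biogenesis factors, and MYC is known to drive both groups of genes.

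The TOP tract is the sequence feature most of the members share, and the windows below show it for genes the results turn on. They run from 25 bases before to 20 bases from the annotated start, 5′ to 3′ on the gene's strand, from RefSeq on GRCh38.p14. Capitals mark the pyrimidine run that begins at the start. RPL35 and RPS9 had lower line means in the KO-labelled lines, without passing the test for genotype. RPS6 was lower in N8, and RPL34 and RPL9 in A30, where the genes around each were also lower. RPL39 was lower in B21 by the probe set used, but not by its other one. RPL31 was low in all 3 KO-labelled lines but did not pass the test. RPS27 and its copy RPS27L are shown as a pair with and without the run.
RPL35, chr9:124861938-124861982, minus strand: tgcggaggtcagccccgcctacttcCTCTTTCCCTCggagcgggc
RPS9, chr19:54200833-54200877, plus strand: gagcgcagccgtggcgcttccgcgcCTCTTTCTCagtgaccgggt
RPS6, chr9:19380217-19380261, minus strand: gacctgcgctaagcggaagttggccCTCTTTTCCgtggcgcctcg
RPL39, chrX:119791611-119791655, minus strand: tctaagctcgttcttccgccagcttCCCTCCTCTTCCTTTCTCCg
RPL34, chr4:108620551-108620595, plus strand: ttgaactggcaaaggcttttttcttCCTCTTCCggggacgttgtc
RPL31, chr2:101002264-101002308, plus strand: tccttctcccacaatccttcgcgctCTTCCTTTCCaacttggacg
RPS27, chr1:153990737-153990781, plus strand: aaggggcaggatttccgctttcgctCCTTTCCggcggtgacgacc
RPL9, chr4:39458903-39458947, minus strand: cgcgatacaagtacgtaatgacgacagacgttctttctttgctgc
RPS27L, chr15:63157458-63157502, minus strand: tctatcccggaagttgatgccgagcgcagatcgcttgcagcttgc

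The run differed in length among these genes, from 7 bases in RPS27 to 19 in RPL39. A C at the annotated start followed by at least 4 pyrimidines was present in 30 of 53 member promoters (56.6%), which belonged to 30 of the 44 members with an entry, against 4.07% of all 35116 promoters. The ETS-type letters CCGGAAG, searched on both strands over the 250 bases before and 50 after the start, stood in 34.0% of member promoters and 10.3% of all. AAGATGGC, the core of the YY1 motif, stood in 7.55% against 2.89%, the TATA box letters TATAAA in 5.66% against 11.5%, and the E-box CACGTG in 5.66% against 7.26%. The CIC motif letters TGAATGAA stood in 1.89% of member promoters against 1.65%, and the shorter TCATTCA, which overlaps it on the other strand, in 3.77% against 4.01%. RPL3L, RPL8, RPL30, RPL39L and RPS15A had no entry. A match is a description of letters and not of a bound site.

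ATXN1L itself was read in every array before the members were compared. It was at 7.05, 7.13 and 7.15 in the parental cells, 7.10, 7.16 and 7.24 in N4 and 7.18, 7.29 and 7.16 in N8. In the KO-labelled lines it was at 7.20, 7.44 and 7.46 in A10, 7.43, 7.31 and 7.42 in A30 and 7.43, 7.41 and 7.61 in B21. The signal was thus not lower in the KO-labelled lines, and the probe set need not lie in the edited part, so the lines are called by their labels. Of 11 kidney and HEK marker genes, 7 had a symbol and all 7 passed the filter, with a mean per wild-type array of 7.05 to 7.31, while the means over all arrays were 5.02 to 5.37 for leukocyte markers (1 of 4 with a symbol passed) and 3.73 to 4.23 for keratinocyte and fibroblast markers (1 of 5 passed). The first A10 replicate was unlike the rest of its line: after each gene's mean was removed, it correlated across genes at 0.014 and 0.135 with the other A10 arrays and at 0.395 with replicate 1 of N4. The main A10 results are therefore also given without it. In bulk RNA on an array, a shared shift of these genes cannot be told apart from a change in the RNA content of the cells or in the mix of cells.

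Most ribosomal protein genes had slightly lower signals in the KO-labelled lines, though no single gene passed the test. Of the 47 members tested, 38 had a difference below 0 (80.9%), against 50.5% of all genes. The large subunit had 26 of 29 below 0 with a median difference of −0.11, and the small subunit 12 of 18 with a median of −0.049, against a median of −0.0022 over all genes. The middle 50% of all genes lay between −0.09 and 0.09, so most members' shifts were of a size that many other genes showed. With limma on 3 line means against 3, 0 of 47 members passed at an adjusted p under 0.05 (0% of all genes passed), and 4 had an unadjusted p under 0.05, a share near the 9.67% of all genes. In 14 members all 3 KO-labelled line means lay below all 3 wild-type line means (7.20% of all genes), and in 0 members all lay above (7.35%). The 14 were 12 large-subunit genes, RPL10, RPL10A, RPL11, RPL24, RPL31, RPL32, RPL34, RPL35, RPL38, RPL39, RPL39L and RPL41, and 2 small-subunit genes, RPS9 and RPS27. In 0 of 47 members did all KO-labelled arrays lie below, or all above, every wild-type array, against 0.299% of all genes each way. Without replicate 1 of A10, 14 members (11 large, 3 small) still had all KO-labelled line means below, against 8.35% of all genes. RPL35A and RPS15A then joined the list, and RPL10 and RPL10A left it.

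**Figure D1:**
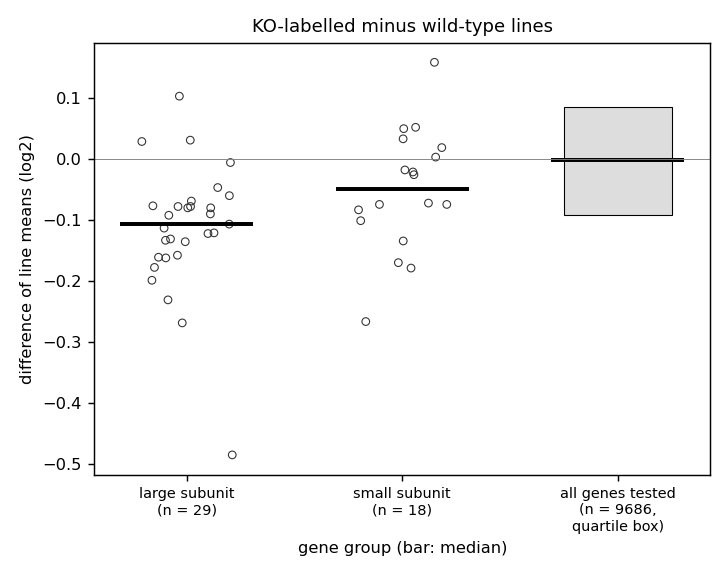
Difference between the means of the 3 KO-labelled and the 3 wild-type lines (log2) for each ribosomal protein gene tested, as open points, with the median as a bar; the box gives the quartiles over all 9686 genes tested. The large-subunit median lay at −0.11 and the small-subunit median at −0.049, and the lowest gene was RPL39L at −0.49.

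Line by line, the large-subunit shift was seen in each KO-labelled line. Relative to each gene's mean over the wild-type lines, the large-subunit median was 0.039, −0.0022 and −0.043 in the parental cells, N4 and N8, and −0.11, −0.10 and −0.079 in A10, A30 and B21. These line medians did not overlap between the genotypes. The small-subunit median was 0.046, 0.0017 and −0.054 in the parental cells, N4 and N8, and −0.059, 0.0072 and −0.039 in A10, A30 and B21. The small-subunit values of the genotypes overlapped, with N8 below A30 and B21. Of the wild-type lines, N8 had the lowest median for both subunits. Array by array, the large-subunit median ran from −0.072 to 0.037 in the wild-type and from −0.16 to −0.060 in the KO-labelled arrays, and overlapped through replicate 1 of N8 and replicate 1 of A10. Without that A10 array, the A10 medians were −0.10 for the large and −0.075 for the small subunit, and the genotype differences were −0.11 for the large and −0.057 for the small subunit. Replicate 1 alone gave −0.10 and −0.028, and replicates 2 and 3 gave −0.12 and −0.018.

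**Figure D2:**
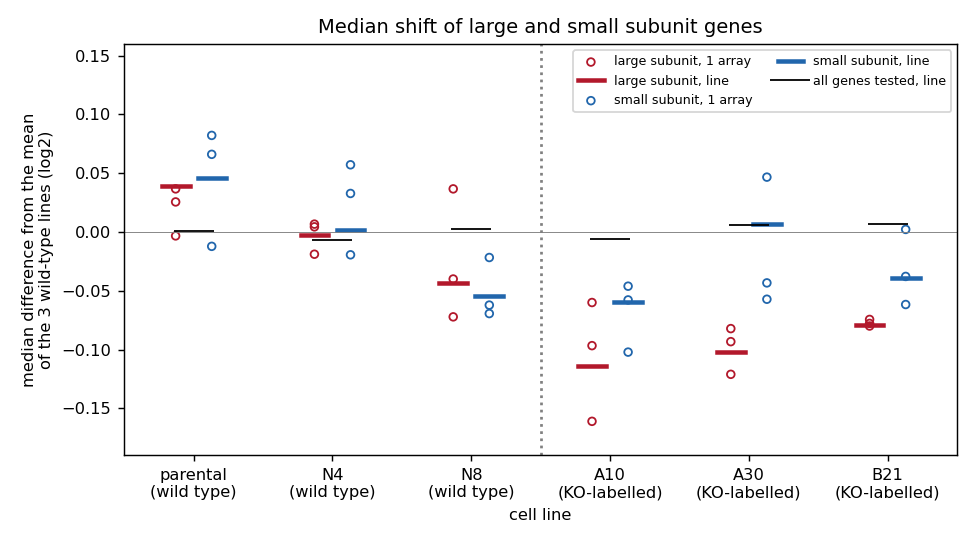
Median log2 difference of large-subunit (red) and small-subunit (blue) genes from the wild-type mean; circles are single arrays, bars the value from the mean of 3 arrays, and black lines the median over all genes tested. The large-subunit bars of A10, A30 and B21 lie between −0.11 and −0.079, below those of the parental cells, N4 and N8, while the small-subunit bars overlap.

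The gap between the subunits was small and varied with the setting. The large-subunit median minus the small-subunit median was −0.0072, −0.0039 and 0.011 in the parental cells, N4 and N8, against −0.055, −0.11 and −0.039 in A10, A30 and B21. For the genotype difference the gap was −0.058. Single arrays overlapped, from −0.057 to 0.058 in the wild-type and from −0.13 to −0.014 in the KO-labelled lines. When each line was centred on the running median of 41 neighbouring genes, the large-subunit difference was −0.076 and the small-subunit difference −0.071, which leaves a gap of −0.005. Without A30 the gap was −0.033, and with a filter at the 60th percentile of signals −0.027. Both subunits stayed below 0 in every setting tried, from −0.13 to −0.076 for the large and from −0.072 to −0.018 for the small subunit, while the gap was not stable in size.

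**Figure D3:**
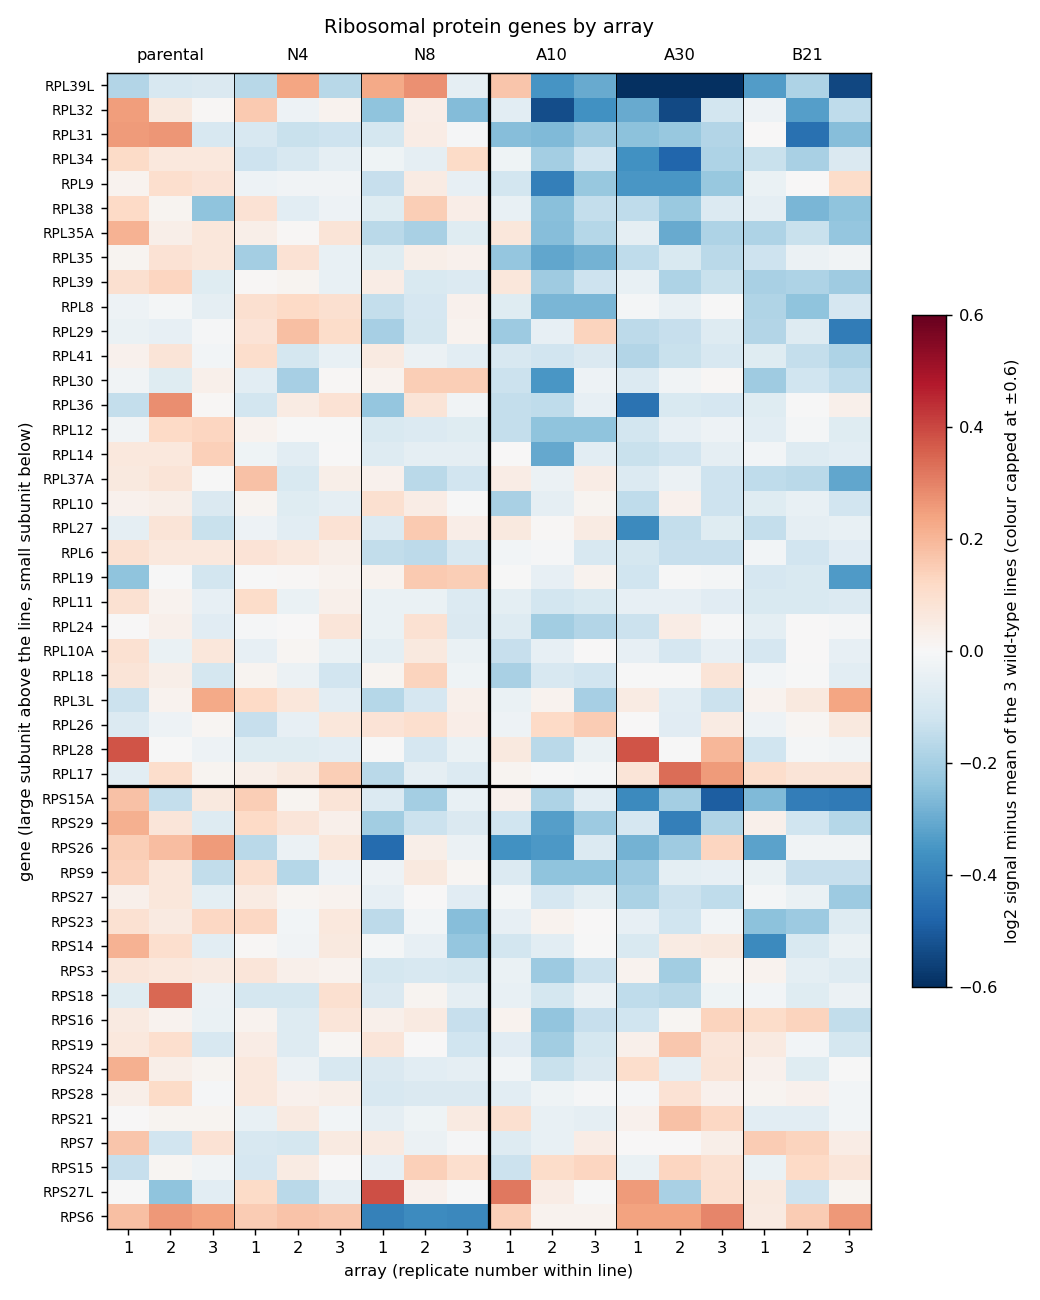
Log2 signal of the 47 ribosomal protein genes tested in each of the 18 arrays, minus the gene's mean over the 3 wild-type lines, with large-subunit genes above the thick line and small-subunit genes below it, each ordered by the genotype difference. Blue is lower and red higher, capped at 0.6, and RPL39L in A30 (−0.94) is the strongest block of 3 arrays. RPS6 in N8 follows, with a mean of 8.81 against 9.20 over the wild-type lines. RPS15A in B21 (−0.37) and A30 (−0.36) is close behind.

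Among large-subunit genes, RPL32, RPL39L and RPL31 had the smallest p-values for genotype. RPL32 was at 6.75, 6.56 and 6.51 in the parental cells, 6.66, 6.47 and 6.52 in N4, and 6.26, 6.54 and 6.24 in N8. In the KO-labelled lines RPL32 was at 6.44, 5.97 and 6.14 in A10, 6.20, 5.96 and 6.39 in A30, and 6.47, 6.17 and 6.35 in B21. The line means separated, while single arrays overlapped from 6.24 to 6.47. The difference was −0.27 ± 0.10 (SE, limma unadjusted p = 0.0210, adjusted p = 0.468).

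RPL31, a protein near the exit of the tunnel through which the growing chain leaves, had nearly the same mean in all 3 KO-labelled lines. It was at 6.23, 6.24 and 5.88 in the parental cells, 5.88, 5.84 and 5.85 in N4, and 5.87, 6.02 and 5.97 in N8. In the KO-labelled lines it was at 5.72, 5.71 and 5.76 in A10, 5.73, 5.75 and 5.80 in A30, and 5.98, 5.53 and 5.72 in B21. Only replicate 1 of B21 lay among the wild-type arrays. The KO-labelled line means were 5.74 ± 0.015 and the wild-type means 5.98 ± 0.13 (SD, n = 3 lines), and the difference was −0.23 ± 0.09 (SE, limma adjusted p = 0.481). These signals lie just above the filter, and no background reading was available.

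RPL35, which also sits at the tunnel exit and contacts the signal recognition particle, was at 8.19, 8.26 and 8.24 in the parental cells, 7.97, 8.26 and 8.13 in N4, and 8.10, 8.21 and 8.20 in N8. It was at 7.94, 7.86 and 7.89 in A10, 8.02, 8.08 and 8.01 in A30, and 8.05, 8.14 and 8.15 in B21. The A10 arrays were the lowest, all below every wild-type array, and those of A30 and B21 overlapped the wild-type range. The genotype difference was −0.16 ± 0.09 (SE, limma adjusted p = 0.601). RPL8, a core protein near the peptidyl transferase centre, was at 10.11 ± 0.02, 10.25 ± 0.01 and 10.07 ± 0.09 (SD, n = 3 arrays) in the parental cells, N4 and N8, and at 9.94 ± 0.12, 10.12 ± 0.02 and 9.97 ± 0.07 in A10, A30 and B21. Its genotype difference was −0.13 ± 0.09 (SE, limma adjusted p = 0.672), with A30 among the wild-type lines.

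RPL38, RPL41 and RPL10 had small shifts of like size in the 3 KO-labelled lines. RPL38, known for its part in the translation of Hox transcripts, differed from the wild-type lines by −0.15, −0.15 and −0.19 in A10, A30 and B21. RPL41, a very short basic peptide, differed by −0.10, −0.13 and −0.13. Without replicate 1 of A10, the A10 values were −0.20 for RPL38 and −0.099 for RPL41. RPL41 has 5 probe sets, all of them lower in the KO-labelled lines, by −0.23 to −0.12. RPL10, which helps to shape the site of the peptidyl-tRNA, differed by −0.08 in each, but by −0.019 in A10 without its replicate 1. RPL11, a regulator of MDM2 when it is not in ribosomes, differed by −0.09, −0.06 and −0.09. None of these 4 passed the test in any KO-labelled line.

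Among small-subunit genes, RPS15A and RPS9 were on the low side and RPS6 on the high side. RPS9, a protein of the mRNA entry channel, was at 6.98, 6.91 and 6.69 in the parental cells, 6.94, 6.67 and 6.81 in N4, and 6.81, 6.90 and 6.85 in N8. It was at 6.76, 6.60 and 6.60 in A10, 6.62, 6.78 and 6.79 in A30, and 6.80, 6.70 and 6.70 in B21. The line means did not overlap, but the arrays did, and the difference was −0.13 ± 0.08 (SE, limma adjusted p = 0.607). On the other side, the highest members were RPL17, RPS6, RPS15, RPS27L and RPS7, with genotype differences of 0.10, 0.16, 0.05, 0.052 and 0.033, and limma adjusted p-values from 0.751 to 0.911. The sign turned in at least 1 setting for RPL17, RPS6 and RPS7.

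RPS15A differed in A30 and B21 but much less in A10. It was at 7.52, 7.20 and 7.40 in the parental cells, 7.49, 7.36 and 7.42 in N4, and 7.26, 7.14 and 7.30 in N8. In A10 it was at 7.37, 7.16 and 7.28, in A30 at 6.96, 7.14 and 6.85, and in B21 at 7.08, 6.93 and 6.92. All B21 arrays lay below every wild-type array, and A30 replicate 2 met the lowest wild-type value. Against the wild-type lines it fell by 0.36 in A30 (SE 0.08, limma adjusted p = 0.0018). In B21 it fell by 0.37 (SE 0.08, adjusted p = 0.00337), and A10 differed by −0.07, or −0.12 without its replicate 1. Both calls held in all 28 settings tried. The 41 neighbouring genes had medians of −0.024 in A30 and 0.09 in B21.

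The single largest difference was that of RPL39L in A30. RPL39L is a retroposed copy of RPL39, whose product lines the exit tunnel, and it is best known from testis. It was at 6.98, 7.06 and 7.07 in the parental cells, 6.99, 7.39 and 6.99 in N4, and 7.38, 7.43 and 7.10 in N8. In A10 it was at 7.32, 6.80 and 6.85, in A30 at 6.31, 5.82 and 6.52, and in B21 at 6.82, 6.97 and 6.61. A30 lay below every other array, B21 below every wild-type array, and only replicate 1 of A10, the array that stood apart, lay within the wild-type range. RPL39L fell by 0.94 in A30 (SE 0.14, limma adjusted p = 9.42e-05) and differed by −0.35 in B21 (adjusted p = 0.0937) and −0.16 in A10, or −0.33 without replicate 1 of A10. The A30 call held in all 28 settings, and its neighbouring genes had a median of −0.10. The genotype difference over the 3 lines was −0.49 ± 0.18 (SE, adjusted p = 0.471), and −0.54 without replicate 1 of A10.

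Other copies were compared with the gene they derive from. RPL39 itself was at 9.69, 9.72 and 9.52 in the parental cells, 9.60, 9.61 and 9.55 in N4, 9.64, 9.50 and 9.51 in N8, 9.66, 9.38 and 9.47 in A10, 9.55, 9.41 and 9.46 in A30, and 9.40, 9.41 and 9.38 in B21. B21 was the lowest and its arrays lay below all wild-type arrays, but a second RPL39 probe set differed by 0.0078 between the genotypes, against −0.14 for the one used. RPS27, a zinc-binding protein of the small subunit, differed by −0.10 ± 0.08 (SE) between the genotypes, and its copy RPS27L, a known p53 target, by 0.052 ± 0.09. Neither passed. RPL10 differed by −0.08, and its testis copy RPL10L was below the filter at 3.38 to 3.86 as line means. RPL3L, the muscle form of RPL3, differed by −0.006.

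**Figure D4:**
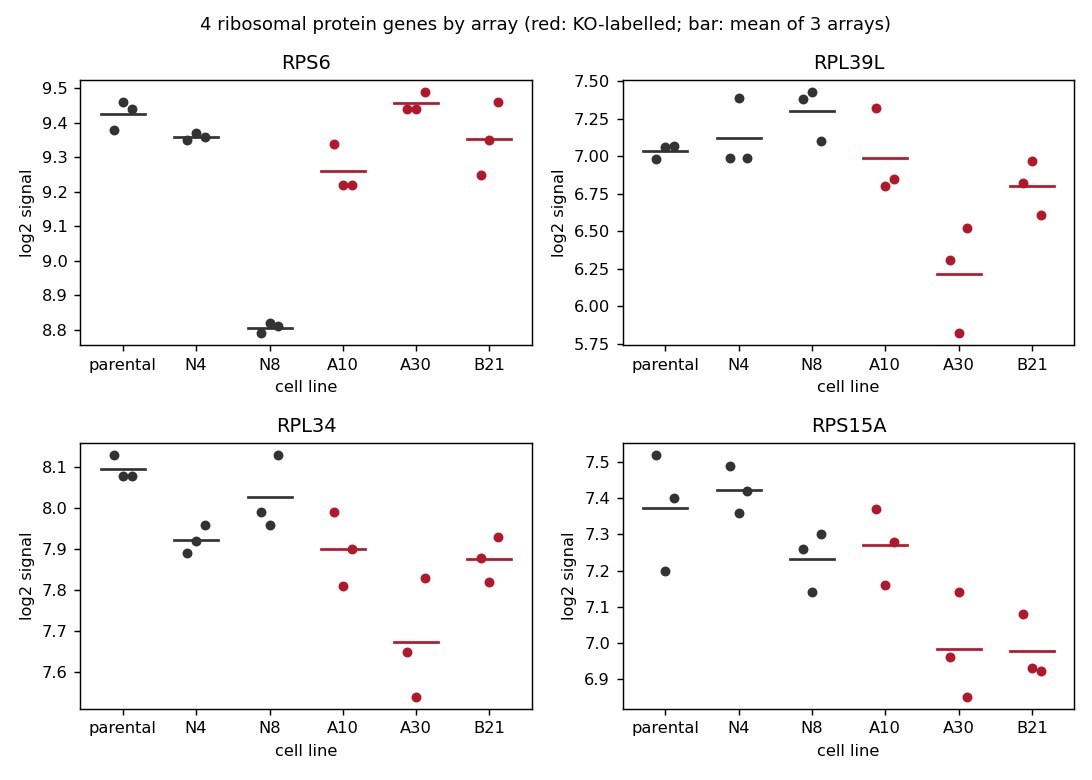
Log2 signal of RPS6, RPL39L, RPL34 and RPS15A in each array by line, with the line mean as a bar and KO-labelled lines in red; each panel has its own axis, which does not start at 0. N8 lies apart for RPS6 at 8.79 to 8.82, A30 for RPL39L at 5.82 to 6.52, A30 is lowest for RPL34 at 7.54 to 7.83, and A30 and B21 are low for RPS15A.

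In A10, 4 large-subunit genes fell and 0 members rose, with 4.56% of all genes lower and 3.84% higher at the same threshold. They were RPL35, which differed by −0.28 ± 0.06 (SE, limma adjusted p = 0.00702), RPL9 by −0.25 ± 0.06 (adjusted p = 0.0224), RPL12 by −0.21 ± 0.05 (adjusted p = 0.0142) and RPL8 by −0.21 ± 0.06 (adjusted p = 0.0308). RPL12 forms the base of the stalk that recruits the translation GTPases, and was at 12.11, 12.01 and 12.01 in A10, below all 9 wild-type arrays, which ran from 12.16 to 12.38. The genes around each of the 4 were also lower in A10, with neighbour medians of −0.11 for RPL35, −0.14 for RPL9, −0.21 for RPL12 and −0.18 for RPL8. After centring on the neighbours, 0 members passed in A10, and RPL12 differed by −0.003. The count was 6 without replicate 1 of A10, 0 without replicate 2 and 1 without replicate 3, which kept RPL35. Without replicate 1 the differences were −0.30 for RPL35, −0.32 for RPL9, −0.24 for RPL12 and −0.27 for RPL8. With the replicate 1 difference as a term, 7 members passed, and 13.8% of all genes in either direction.

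In A30, 9 members fell and 2 rose, with 16.3% of all genes lower and 12.9% higher. The lower ones were RPL39L, RPS15A, RPL34, RPL32, RPL9, RPS29, RPL27, RPS27 and RPL6, the higher ones RPL17 and RPS6. RPL34 was at 8.13, 8.08 and 8.08 in the parental cells, 7.89, 7.92 and 7.96 in N4, 7.99, 7.96 and 8.13 in N8, 7.99, 7.81 and 7.90 in A10, 7.65, 7.54 and 7.83 in A30, and 7.88, 7.82 and 7.93 in B21. The A30 arrays were below all wild-type arrays, and RPL34 fell by 0.34 in A30 (SE 0.06, limma adjusted p = 0.000588). Its 41 neighbours on chromosome 4 had a median of −0.55 in A30, and after centring on them RPL34 differed by 0.21, the opposite direction (adjusted p = 0.0248). RPL9, also on chromosome 4, fell by 0.31 with a neighbour median of −0.26, and RPL17 rose by 0.22 with a neighbour median of 0.26. RPL32 fell by 0.32 (adjusted p = 0.0311), and its neighbours had a median of 0.031, but its call was lost in 7 of 27 settings, among them leaving out replicate 1 of the parental cells or N4, replicate 2 of N8, or replicate 1 or 2 of A30. The count of 11 was 7 without replicate 2 of N8 and 6 without replicate 2 of A30. With the replicate 1 difference as a term, 15 members passed in A30, and 35.7% of all genes in either direction.

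In B21, 5 members fell and 0 rose, with 7.20% of all genes lower and 8.82% higher. Beside RPS15A, RPL37A fell by 0.21 (SE 0.06, limma adjusted p = 0.0297), RPL39, by the probe set used, by 0.20 (SE 0.06, adjusted p = 0.0438), RPS23 by 0.18 (SE 0.06, adjusted p = 0.0439) and RPL8 by 0.18 (adjusted p = 0.0414). The second RPL39 probe set was not lower, at 8.10 in B21 against 8.04 in the wild-type lines, and the mean over both probe sets differed by −0.066 (limma adjusted p = 0.584). RPS23 is a protein of the decoding centre. The neighbours of RPS23 had a median of −0.13, and RPS23 differed by −0.036 after centring on them. Those of RPL8 had a median of −0.11 in B21, and the stability of the RPL8 call in B21 is not given. RPL39 and RPS23 each lost the call in 15 of 28 settings, including 12 in which 1 array was left out, and RPL37A in 5, including without replicate 2 or 3 of B21. The whole count ran from 2 to 8 when 1 array was left out. It was 2 without replicate 2 of the parental cells, replicate 1 or 3 of N4 or replicate 2 or 3 of B21. It was 3 without replicate 1 of the parental cells, replicate 2 of N4 or replicate 2 or 3 of N8, and 8 without replicate 1 of A10. With the replicate 1 difference as a term it was 9, with 22.7% of all genes called in either direction.

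Of the wild-type lines, N8 differed from the parental cells in RPS6. RPS6 is the small-subunit protein phosphorylated by the S6 kinases below mTOR. It was at 9.38, 9.46 and 9.44 in the parental cells, 9.35, 9.37 and 9.36 in N4, and 8.79, 8.82 and 8.81 in N8. In the KO-labelled lines it was at 9.34, 9.22 and 9.22 in A10, 9.44, 9.44 and 9.49 in A30, and 9.25, 9.35 and 9.46 in B21. N8 lay below all other arrays by far more than the spread within any line, and RPS6 fell by 0.62 against the parental cells (SE 0.06, limma adjusted p = 1.01e-05). The neighbours of RPS6 on chromosome 9 had a median difference of −0.34 in N8 against the parental cells, and after centring on them RPS6 still differed by −0.28 and passed. N8 also sets the direction of RPS6 between the genotypes: the difference was 0.16 with all lines, −0.037 without N8 and −0.042 with neighbour centring. The A30 call of 0.26 for RPS6 is against a wild-type mean that includes N8, and its neighbours had the same median, 0.26.

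In N8 as a whole, 3 members fell and 0 rose, with 7.03% of all genes lower and 7.67% higher. Beside RPS6 they were RPS23, by 0.23 (SE 0.07, limma adjusted p = 0.0374), and RPL6, by 0.21 (SE 0.06, adjusted p = 0.0200). RPL6 was at 8.20, 8.19 and 8.25 in N8, below the other 6 wild-type arrays, which ran from 8.38 to 8.44. The neighbours of RPL6 and RPS23 had median differences of −0.14 and −0.086 in N8 against the parental cells. After centring on them, RPL6 differed by −0.066 and RPS23 by −0.148, and only RPS6 passed. The RPS23 call was lost in 8 of 28 settings, including without any 1 of the 3 parental arrays or replicate 1 or 3 of N8, and that of RPL6 in 6, including without any 1 parental array or replicate 2 of N8. Without replicate 1 or 3 of the parental cells, only RPS6 passed. With the replicate 1 difference as a term 7 members passed, and 21.9% of all genes. In N4, 0 of 47 members passed (0.341% of all genes were lower and 0.206% higher), with 2 at an unadjusted p under 0.05, RPL31 and RPL34. The small-subunit median in N8 was −0.13 against the parental cells, with 16 of 18 genes below 0, and the large-subunit median −0.07, with 20 of 29 below 0, against 0.0033 over all genes. The small-subunit median of this control clone against the parental cells alone was further from 0 than the genotype difference of −0.049, which sets 3 lines against 3. The references differ. Relative to the mean of the wild-type lines, the small-subunit median was −0.054 in N8, −0.059 in A10, 0.0072 in A30 and −0.039 in B21.

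Among lines of 1 genotype, 5 members differed by the F test. The limma F test among the 3 KO-labelled lines called 3 members, RPL39L, RPL9 and RPS15A, with 25.8% of all genes called. Among the 3 wild-type lines it called 2, RPS6 and RPL6, with 16.1% of all genes called. When replicate 1 had a term of its own, 8 and 5 members passed, with 34.3% and 24.8% of all genes called. The median range of line means was 0.14 for members among the KO-labelled and 0.14 among the wild-type lines, against 0.21 and 0.19 over all genes. Without replicate 3 of B21 only RPL39L was called among the KO-labelled lines, and without replicate 1 or 3 of N8 only RPS6 among the wild-type lines. As a description over pairs of genes, the median correlation over the 6 line means was 0.42 within the large subunit (406 pairs), 0.26 within the small (153 pairs) and 0.25 between the subunits (522 pairs), against 0.00 over all pairs of genes. Over the arrays within lines it was 0.092 for members and 0.017 for all genes. The pairs share the same arrays and genotype shift, and no test was made of them.

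The members were also set beside genes that supply or serve the ribosome. For genotype, limma passed 0 genes in any of these lists, as it passed 0% of all genes. Of all genes, 50.5% lay below 0 and 9.67% had an unadjusted p under 0.05. Of 21 listed translation factors and other genes with TOP tracts, 9 were tested, all 9 lay below 0 (median −0.051) and 0 had an unadjusted p under 0.05. The lowest was HNRNPA1 at −0.17, with EIF4B at −0.12 and EEF1G at −0.10. Hosts of small nucleolar RNAs, whose transcripts often carry the tract, had a median of −0.14 over 7 tested of 11, with 6 below 0, and SNHG8, EPB41L4A-AS1 and SNHG5 at −0.20, −0.21 and −0.14. Both lists were also low in a wild-type clone. In N8 against the parental cells, 9 of 9 TOP genes (median −0.13) and 6 of 7 hosts (median −0.28) lay below 0, against 49.0% of all genes. In N4, 6 of 9 TOP genes (median −0.007) and 7 of 7 hosts (median −0.12) did, against 53.9%. The 60S assembly factors had a median of 0.002 over 25 tested of 32 (12 below 0, 1 at an unadjusted p under 0.05), with GNL3L at −0.22 and PAK1IP1 at 0.16. The 40S assembly factors had a median of 0.074 over 26 tested of 40 with 4 below 0 (2 at an unadjusted p under 0.05), led by UTP18 at 0.27 and NOL6 at 0.25. The mitochondrial ribosomal proteins had a median of −0.023 over 73 tested of 77 with 43 below 0 (4 at an unadjusted p under 0.05), and MRPL57 at −0.41 and MRPL39 at 0.27. Members of the RNA polymerase I and nucleolus list had a median of −0.08 over 9 tested, with NOLC1 at −0.24.

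MYC, a known activator of ribosomal protein genes, had a far larger difference than any member. It was at 8.33 ± 0.39 in the wild-type and 7.21 ± 0.52 in the KO-labelled lines (SD, n = 3 lines), a difference of −1.12 ± 0.26 (SE, limma adjusted p = 0.312). Single lines passed the test, with MYC at −0.95, −1.70 and −0.70 in A10, A30 and B21 (limma adjusted p = 0.00326, 3.84e-06 and 0.0128). Without replicate 1 of A10, MYC differed by −1.29 in A10. N8 differed from the parental cells by −0.72 (adjusted p = 0.0364). Any relation between MYC and the members was not tested. The list of TOP control genes and MYC had a median genotype difference of −0.12 over 10 tested of 16. Of these, 8 lay below 0 and 1 had an unadjusted p under 0.05. EIF4EBP2 and EIF4E, which act between mTOR and cap-dependent translation, differed by −0.22 (limma adjusted p = 0.527) and −0.31 (adjusted p = 0.534) between the genotypes. By line, EIF4E was at −0.093, −0.67 and −0.17 in A10, A30 and B21, and passed in A30 (adjusted p = 1.10e-05). EIF4EBP2 was at −0.049, −0.36 and −0.27, and passed in A30 (adjusted p = 0.000113) and B21 (adjusted p = 0.00294). Neighbour medians are given for the members only. Whether the genes around EIF4E or EIF4EBP2 were also lower in these lines was not tested. In the same list MTOR and RHEB were called higher in B21, where 8.82% of all genes were. TSC2 was called lower in A10 (4.56% of all genes were), and TSC1 in A30 (16.3%) and N8 (7.03%). RPL22L1, a copy of RPL22 outside the rule, rose by 0.56 in A10 (adjusted p = 0.00894), or 0.71 without replicate 1, and fell by 0.43 in A30 (adjusted p = 0.0139), while RPL22 itself was too dim to test.

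Replicate 1 differed from the other replicates in most ribosome assembly factors and in 4 ribosomal proteins. The contrast was fitted over all 6 lines, each with a mean of its own. Of the members, RPL36, RPS15 and RPS26 were lower (10.0% of all genes were) and RPS27L was higher (8.56% of all genes were), with medians of 0.0083 for the large and 0.029 for the small subunit. RPS27L, the p53 target, was at 6.32, 6.44, 6.71, 6.64, 6.58 and 6.38 in replicate 1 of the parental cells, N4, N8, A10, A30 and B21, and rose by 0.24 (SE 0.05, limma adjusted p = 0.00418). In each line replicate 1 was the highest of the 3 arrays. RPS26 fell by 0.24, a call lost without replicate 1 of N8, and RPL36 fell by 0.20. RPS15, at 12.11 to 12.21 in replicate 1 and 12.23 to 12.39 in the others, fell by 0.16. Beside these, 20 of 25 factors of 60S assembly fell (median −0.23), 21 of 26 of 40S assembly (median −0.20) and 34 of 73 mitochondrial ribosomal proteins (median −0.12), and 0 rose in these 3 lists. Of the 7 p53 target genes tested 4 rose, GDF15, SESN1, BAX and TP53INP1. No label says what the replicate number stands for.

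**Figure D5:**
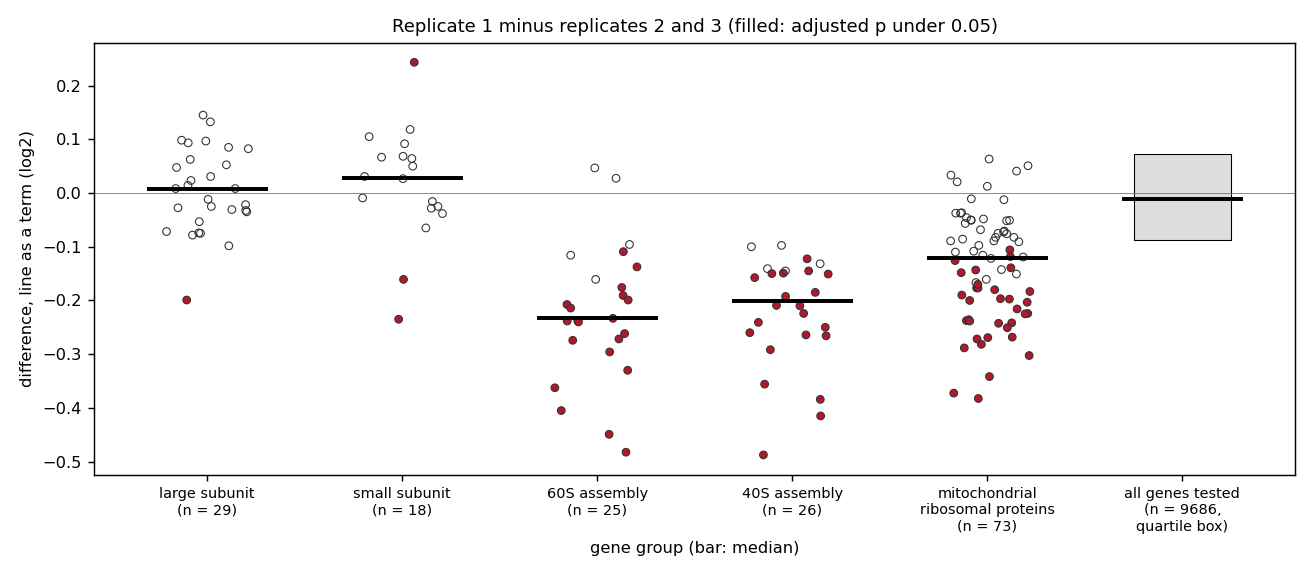
Difference between replicate 1 and replicates 2 and 3 over the 6 lines (log2, with a mean for each line) for large- and small-subunit proteins, 60S and 40S assembly factors and mitochondrial ribosomal proteins; points are genes, filled where the limma adjusted p was under 0.05, bars are medians, and the box gives the quartiles over all genes tested. Both assembly lists lie around −0.23 and −0.20, while the ribosomal proteins centre near 0.

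The members were also split by the pyrimidine start, with no test of the difference between the parts. The 29 members tested that have it had a median difference of −0.083, with 25 below 0. The 13 with an entry but no such start had a median of −0.078, with 8 below 0, and the 5 without an entry −0.13, with 5 below 0. The start was one of the RefSeq annotation, not one measured in these cells. Ribosomal protein genes have many processed pseudogenes with nearly the same sequence, so part of a probe set's signal could come from other copies, which was not tested.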

How the data were processed

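Total RNA from the Qiagen miRNeasy kit was hybridised to Affymetrix arrays, per the labels. The authors deposited log2 signals from Affymetrix Expression Console, per the submitters' processing notes, which name no settings. They ran from 0.57 to 14.84, with array medians of 5.09 to 5.18, and were used as deposited. Of 53617 probe sets, 16098 had 1 gene symbol. The probe set with the highest mean stood for a gene, and 4 members had several. The filter value is the 40th percentile of all named signals.

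Genotype was tested on line means, 3 against 3, with limma 3.58.1 in R 4.3.3, where an exact permutation test cannot go below 0.1. Other comparisons used all arrays with 1 mean per line, and cover the spread between cultures of a clone only. All tests were two-sided, fitted on all 9686 genes and adjusted by Benjamini-Hochberg, with an adjusted p under 0.05 as a call. Only the genotype fit and the A10 contrast were tried on simulated data. The planted changes were far larger than most differences here, so shifts as small as those of the members were not tried. Errors of differences are limma standard errors. The neighbour median covers 41 tested genes along a chromosome in the order of the RefSeq annotation, the gene included.

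Named are RPL35, RPS9, RPL8 and RPS6, up to 5 members with the smallest genotype p in each direction, up to 4 with the largest difference among those called in each other comparison, copies ending in L, members among neighbours shifted by 0.3 or more, and up to 3 genes of each related list with the smallest genotype p. RPL41, RPL10, RPL11, RPL27 and others outside that rule were named after their values were seen. The members and lists were chosen with earlier results of these data known. Alternatives covered the filter, normalisation, probe set, variance model, thresholds, replicate terms and blocks, neighbour centring, and leaving out each array and line. Precision is limited by the number of arrays. Figures were drawn with matplotlib 3.10.9.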

Additional observations from a re-analysis of the deposited data

Results flagged for a closer look

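Lines of 1 genotype differed from each other in 5 of 47 ribosomal protein genes by limma's F test, 3 among the KO-labelled lines, where 25.8% of all genes passed, and 2 among the wild-type lines, where 16.1% did. Among the KO-labelled lines, the range of the line means was 0.77 for RPL39L (adjusted p = 0.00665), lowest in A30 and highest in A10, 0.33 for RPL9 (adjusted p = 0.00883), lowest in A30 and highest in B21, and 0.29 for RPS15A (adjusted p = 0.0365), highest in A10. Among the wild-type lines, the range was 0.62 for RPS6 (adjusted p = 1.33e-05), lowest in N8, and 0.21 for RPL6 (adjusted p = 0.0243), also lowest in N8. The range of RPL9 was 0.087 and that of RPL6 0.07 after centring on neighbouring genes. The RPS15A call among the KO-labelled lines was lost in 8 of 28 settings, among them without replicate 1 of A10 (range 0.243, adjusted p = 0.147).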

How the results depend on the processing

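Between the genotypes 0 members passed under every alternative run, and the medians of both subunits kept their sign. The gap between the subunits, −0.058, was −0.046 with quantile normalisation, −0.042 with the mean over probe sets, −0.027 with the 60th percentile filter, −0.005 with neighbour centring, −0.072 in replicate 1 alone, −0.10 in replicates 2 and 3 alone, and −0.072, −0.081, −0.033 and −0.071 without the parental cells, A10, A30 or B21. Leaving out single arrays gave −0.085 to −0.039.

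Counts of members that passed moved with the alternatives as follows. With no filter there were 2 in A10, 6 in A30, 1 in B21 and 1 among the wild-type lines. The 60th percentile filter gave 8 in B21, 5 in N8 and 6 among the KO-labelled lines. Quantile normalisation gave 5 and median-centred arrays 6 among the KO-labelled lines. The trended, robust variance gave 9 in B21, 7 in N8, 8 among the KO-labelled and 5 among the wild-type lines, and a replicate 1 term 7 in A10, 9 in B21, 7 in N8, 8 and 5. Neighbour centring gave 0 in A10, 1 in N8 and 1 among the wild-type lines. Replicates 2 and 3 alone gave 5 among the KO-labelled and 1 among the wild-type lines. At an adjusted p under 0.1 there were 8 in A10, 11 in B21, 7 in N8 and 10 among the KO-labelled lines. With at least 1.2-fold there were 1 in A10, 5 in A30, 1 in B21, 1 in N8, 1 among the wild-type lines and 0 for replicate 1. Leaving out single arrays gave 0 to 6 in A10, 6 to 12 in A30, 2 to 8 in B21, 1 to 4 in N8, 1 to 4 among the KO-labelled and 1 to 3 among the wild-type lines. Shares of all genes are given above for the main fit and the replicate 1 term only. Counts under the other alternatives are therefore not set against all genes, and show only how the calls moved. The cause of these changes was not tested.

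The replicate block had the replicate number as a term. It gave 7 in A10, 9 in B21, 7 in N8, 7 among the KO-labelled and 5 among the wild-type lines. The share of all genes under this block is not given. The correlation of deviations from line means was 0.165 to 0.514 in the 15 pairs of replicate 1 arrays, but 0.1 or less in 7 of all 45 same-number pairs. Median correlations of same-number pairs were 0.32, 0.19 and 0.13 for replicates 1, 2 and 3. As no label says what the numbers stand for, they were not used as pairs in the main fits. Any shared replicate effect thus stays in the spread of those fits. Of 18 arrays, 15 were nearest to one with their own number, a hint from the data and not the design.

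Directions turned for RPL17 (−0.055 with neighbour centring), RPS6 (−0.042 with it, −0.037 without N8), RPS7 (−0.013 in replicate 1 alone, −0.006 without B21) and RPL34 in A30 (0.213 with neighbour centring). No background signal was available to set a limit for dim probe sets.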
